A study of Arabidopsis thaliana with 9 samples.

Results

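*NAC014* (AT1G33060) was the only gene found when the platform annotation was searched for single-gene probe sets, sets of probes that read out a transcript together, with a symbol made of MYB, NAC or ANAC and a number. *MYB2*, *MYB28*, *MYB44*, *MYB96* and *NAP*, MYB and NAC genes tied to abscisic acid, glucosinolates or senescence, were set aside by that rule. The search covered 13513 probe sets with 1 gene name among 22810 on the ATH1 array, and *NAC014* has 1 probe set among them. The RefSeq table used for names holds 193 genes with such a symbol, so 192 of them have no single-gene name in the annotation table used here and are not analysed under the rule. The name of a group of MYB and NAC factors is therefore not borne out by this annotation, and what follows is an account of 1 NAC gene.

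Mature leaves of 45-day-old *Arabidopsis* grown under 12 h of light and normal watering were compared in 3 groups of 3 arrays. The first carried *MeGRXC15*, a cassava CC-type glutaredoxin fused to GFP behind the CaMV promoter that is active in most plant tissues, and is labelled MeGRX232-OE (lines 3, 9 and 12 in the Col-0 background). The second, labelled MeGRX360-OE (lines 5, 11 and 20), carried another cassava glutaredoxin construct by its label, for which the sources used here name neither promoter nor background. The third carried the empty *pG1300* vector (samples 1, 2 and 3), which by the study's methods holds eGFP and was also put into Col-0. All 9 samples are thus transgenic. The study asked how the glutaredoxin alters gene expression in leaves that were not stressed. Each *MeGRXC15*-OE array stands for a separate homozygous line. The study's text can be read to mean separate lines for the controls too, but the labels only number the vector samples, and if these share a line the p-values measure only the spread between samples.

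NAC factors are plant transcription factors with a conserved DNA-binding domain near the N-terminus and a variable C-terminal part that activates or represses transcription. They act in organ boundaries, wood formation, leaf senescence and responses to drought, salt and pathogens. *NAC014* belongs to a subset with a predicted membrane anchor at the C-terminus. Relatives of this kind are held at a membrane and reach the nucleus once the anchor is cut, often under stress. The transcript level measured here thus says nothing about how much active protein is present.

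*NAC014* was measured at an intensity of 80.3, 66.8 and 79.4 in the *MeGRXC15*-OE lines 3, 9 and 12. The MeGRX360-OE lines 5, 11 and 20 stood at 94.2, 70.0 and 64.7. The vector samples 1, 2 and 3 stood at 50.8, 44.6 and 61.0. All 6 overexpression arrays lay above all 3 vector arrays, and the highest array was MeGRX360-OE line 5. The margin was narrow, since the lowest *MeGRXC15*-OE array was 1.10 times the highest vector array and the lowest MeGRX360-OE array 1.06 times. As means, *NAC014* reached 75.5 ± 7.54 in *MeGRXC15*-OE, 76.3 ± 15.7 in MeGRX360-OE and 52.1 ± 8.28 in vector leaves (SD, n = 3 each). In bulk leaf RNA, a difference in the share of cells that express the gene and a difference in RNA per cell cannot be told apart.

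**Figure D1:**
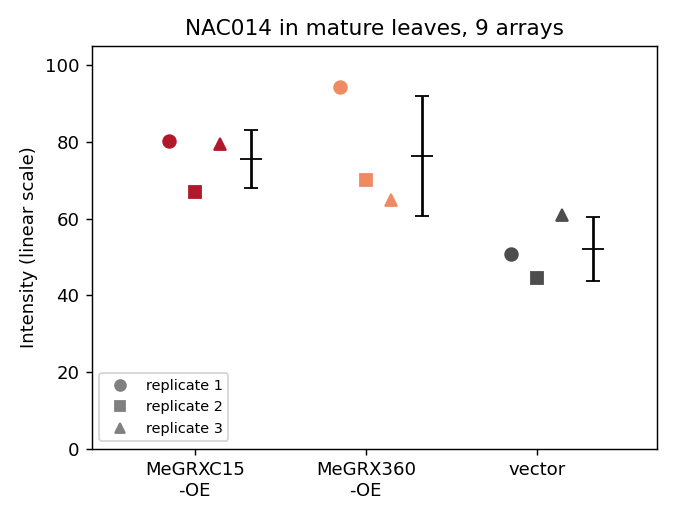
Intensity of *NAC014* on a linear scale in each of the 9 arrays. Points are arrays, marker shapes are replicate numbers within a group, and the bars to the right of each group show the mean ± SD (n = 3). The lowest overexpression array, at 64.7, sits just above the highest vector array, at 61.0.

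On the log2 scale the groups averaged 6.23 in *MeGRXC15*-OE, 6.23 in MeGRX360-OE and 5.69 in vector leaves, with SDs of 0.15, 0.29 and 0.23 (n = 3 each). The 2 overexpression groups hold the upper place together, and the vector group lies below them. Relative to the geometric mean of the vector arrays, *NAC014* was 1.55, 1.29 and 1.54 times as bright in *MeGRXC15*-OE lines 3, 9 and 12. The same ratio was 1.82, 1.35 and 1.25 in MeGRX360-OE lines 5, 11 and 20. No single line of *MeGRXC15*-OE stood far from the others, whereas line 5 accounts for much of the spread in MeGRX360-OE. The vector arrays themselves ran between 0.862 and 1.18 times their own geometric mean.

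The place of *NAC014* within each array showed the same separation. Its intensity exceeded that of 66.3% to 68.5% of the tested probe sets in *MeGRXC15*-OE arrays and 65.2% to 72.0% in MeGRX360-OE arrays, against 57.2% to 62.9% in vector arrays. It was thus a transcript of moderate signal on every array. Set against the array median, *NAC014* was 2.38 to 2.80 times as bright in *MeGRXC15*-OE, 2.22 to 3.23 times in MeGRX360-OE and 1.52 to 2.08 times in vector leaves. The vector arrays lie below all overexpression arrays on this relative measure too, while the 2 overexpression groups overlap. The array medians themselves were alike, between 28.1 and 29.4 in *MeGRXC15*-OE, between 28.7 and 29.3 in MeGRX360-OE and between 29.3 and 30.2 in the vector samples.

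*NAC014* had a log2 fold change of 0.54 in *MeGRXC15*-OE against vector leaves (SE 0.17, 95% interval 0.15 to 0.94, adjusted p = 0.0556 from limma). This is a 1.46-fold difference with an interval of 1.11 to 1.91. The gene did not pass the threshold of 0.05 on the p adjusted over all 22746 probe sets tested, although all 3 lines lay above all 3 vector samples. Of all probe sets, 22.0% were called in this comparison, 9.22% as higher and 12.8% as lower. Its unadjusted p was 0.0127, just short of the largest unadjusted p that was called, 0.0110. In 17.0% of the probe sets the 3 *MeGRXC15*-OE arrays all exceeded the 3 vector arrays, and in 37.1% the groups did not overlap in one direction or the other, so this separation was common on these arrays. The fold change exceeded that of 89.0% of the probe sets, and 2507 probe sets had a larger one.

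The call for *MeGRXC15*-OE depends on how the values are handled. *NAC014* passed after quantile normalization (0.60, adjusted p = 0.0283 from limma), after centring (0.59, adjusted p = 0.0386) and once arrays were weighted by quality (0.65, adjusted p = 0.00929). It also passed without vector replicate 3 (0.66, adjusted p = 0.0417), the vector array with the highest *NAC014* level. Without vector replicate 2, the lowest array, the log2 fold change was 0.44 (adjusted p = 0.190 from limma). The array quality weights raised the calls over all probe sets too, from 5009 to 6835.

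In MeGRX360-OE against vector leaves *NAC014* had a log2 fold change of 0.54 as well (SE 0.17, 95% interval 0.15 to 0.94, adjusted p = 0.0678 from limma). It did not pass, where 16.5% of all probe sets were called, 6.74% as higher and 9.72% as lower. The unadjusted p was again 0.0127, and the largest one called here was 0.00823. All 3 arrays exceeded the 3 vector arrays, as was the case in 16.5% of all probe sets, while 35.4% did not overlap in one direction or the other. The fold change exceeded that of 90.5% of the probe sets. Both comparisons use the same 3 vector arrays, so their likeness is not independent support for either. Without MeGRX360-OE replicate 1, which is line 5, the log2 fold change was 0.38 (adjusted p = 0.164 from limma). *NAC014* passed after quantile normalization (0.62, adjusted p = 0.0309 from limma) and once arrays were weighted by quality (0.48, adjusted p = 0.0367). These weights raised the calls over all probe sets from 3746 to 5701.

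**Figure D2:**
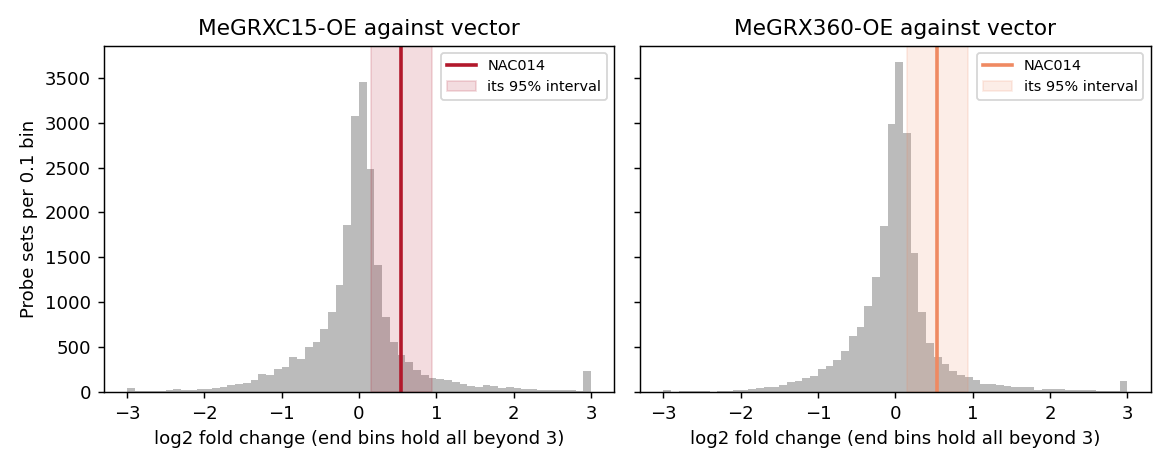
Distribution of log2 fold changes over all 22746 probe sets tested, for *MeGRXC15*-OE (left) and MeGRX360-OE (right) against vector. The vertical line is *NAC014*, at 0.54 in both panels, and the shaded band is its 95% interval, which does not include 0.

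*NAC014* did not separate the 2 overexpression groups. The log2 difference of *MeGRXC15*-OE over MeGRX360-OE was 0.00 (SE 0.17, 95% interval -0.39 to 0.39, adjusted p = 1.00 from limma). The interval corresponds to 0.761-fold to 1.31-fold, so differences of that size remain possible. Few probe sets were called in this comparison at all, 0.145% of them, with 0.0572% higher and 0.0879% lower. That count of 33 was not stable, with 530 called under array quality weights, 177 without *MeGRXC15*-OE replicate 2, 141 without MeGRX360-OE replicate 1 and 4 without MeGRX360-OE replicate 2 or 3. The arrays of both groups overlap, with 66.8 to 80.3 in *MeGRXC15*-OE inside the range of 64.7 to 94.2 in MeGRX360-OE. Over all probe sets, 16.3% had no overlap between these groups, and 7.72% had all *MeGRXC15*-OE arrays above all MeGRX360-OE arrays.

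The spread of *NAC014* around its group means was 0.23 on the log2 scale, against a median of 0.19 over all probe sets. It was thus measured with slightly more scatter than a typical probe set, at the percentile 63.4 of residual SDs.

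**Figure D3:**
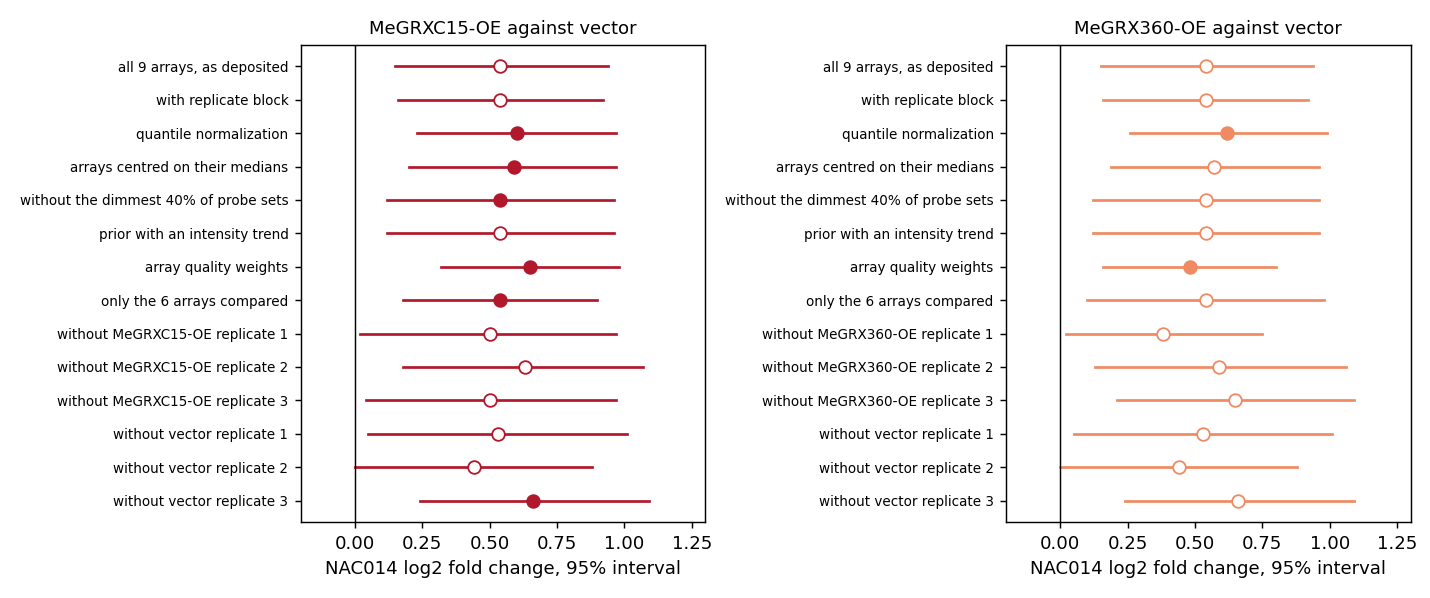
Log2 fold change of *NAC014* with its 95% interval for *MeGRXC15*-OE (left) and MeGRX360-OE (right) against vector, under each way of handling the data. Filled points have an adjusted p under 0.05 from limma, open points do not. All values lie between 0.38 and 0.66, above 0.

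For 25S rRNA the intensity was between 430 and 616 in *MeGRXC15*-OE, between 853 and 1073 in MeGRX360-OE and between 279 and 350 in the vector samples. These ranges do not overlap, and both overexpression groups lie above the vector group, as they do for *NAC014*. This difference follows the groups, so it cannot be told apart from the construct carried. GAPDH has probe sets at either end of its transcript, and the ratio of the 3′ to the 5′ one goes up with RNA breakdown. This ratio lay between 10.4 and 11.1 in *MeGRXC15*-OE, between 9.37 and 16.1 in MeGRX360-OE and between 8.96 and 10.5 in the vector samples, so its ranges overlap. The same ratio for actin lay between 13.6 and 20.1 in *MeGRXC15*-OE, a range that spans the 17.9 to 19.2 of the vector samples. In MeGRX360-OE it lay between 12.0 and 14.8, below all vector samples. On every array the 3′ probe set was much the brighter, by at least 8.96 times for GAPDH and 12.0 times for actin. A strong 3′ excess was thus common to all arrays, and its effect on the values was not tested. The highest GAPDH ratio, 16.1, belongs to MeGRX360-OE line 5, the array in which *NAC014* was brightest, and the actin ratio of that array was 14.8. The value of *NAC014* without that array is given above, and the part of these features in the remaining difference was not tested. Of 24 marker genes of leaf and other cell types, 4 have a name here. *RCA*, the Rubisco activase of green tissue, averaged 7647 ± 668 in *MeGRXC15*-OE, 9183 ± 179 in MeGRX360-OE and 11325 ± 257 in vector leaves (SD, n = 3 each), while *PYK10*, a root beta-glucosidase, was between 5.14 and 6.73 on all arrays. *RCA* was called lower in *MeGRXC15*-OE against vector (-0.57, SE 0.10, adjusted p = 0.00328 from limma), as were 12.8% of all probe sets. It was not called in MeGRX360-OE (-0.30, SE 0.10, adjusted p = 0.0676). The difference between the overexpression groups, -0.27 (SE 0.10, adjusted p = 0.280 from limma), was not called either. The *RCA* arrays of either overexpression group did not overlap with the vector arrays. This was so in 37.1% of all probe sets for *MeGRXC15*-OE and in 35.4% for MeGRX360-OE. *FMA*, a guard cell factor also called FAMA, was between 15.3 and 24.0. Markers of flowers, seeds, xylem and phloem have no named probe set here.

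Few other MYB and NAC genes were found by a search of gene symbols and synonyms. Genes of these families that go by other names were not counted. The lists drawn up by known role, from flavonol and secondary wall MYB factors to ATAF and membrane-tethered NAC factors, hold 143 genes, none of which has a single-gene name in the annotation. A further 3 of them, *MYB48*, *NAC061* and *NAC090*, are paired with a probe set in a supplementary table of the study, which listed genes that it found to change on these very arrays, so their direction is not independent evidence. *NAC090*, a factor that delays leaf senescence, was at 260, 292 and 174 in *MeGRXC15*-OE, 99.9, 54.1 and 211 in MeGRX360-OE and 34.5, 32.8 and 9.93 in vector leaves. Its log2 fold change against vector was 3.40 in *MeGRXC15*-OE (SE 0.58, limma adjusted p = 0.00330). In MeGRX360-OE it was 2.22 (SE 0.58, limma adjusted p = 0.0315). *NAC061*, its close relative, had 2.27 (SE 0.27, limma adjusted p = 0.000635) in *MeGRXC15*-OE and 0.95 (SE 0.27, limma adjusted p = 0.0465) in MeGRX360-OE. Its vector arrays, at 6.18 to 8.65, were about as dim as those of *PYK10* and far below the array medians, and *NAC061* was among the dimmest 40% of probe sets, so the size of its fold change is uncertain. *MYB48*, a relative of *MYB59*, had -2.45 (SE 0.31, limma adjusted p = 0.000742) and -1.68 (SE 0.31, limma adjusted p = 0.00691). The *NAC061* and *NAC090* calls in MeGRX360-OE were lost with a replicate block (adjusted p = 0.0767 and 0.0636 from limma), with only the 6 arrays compared (adjusted p = 0.0531 and 0.0585) and when certain single arrays were left out. The *NAC061* call was also lost after quantile normalization (adjusted p = 0.0585). The fold change of *NAC014* was smaller in size than that of any of these 3 genes in both groups. This order says nothing about *NAC014*, since the 3 genes were listed because they changed on these very arrays. The comparison was not tested.

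**Figure D4:**
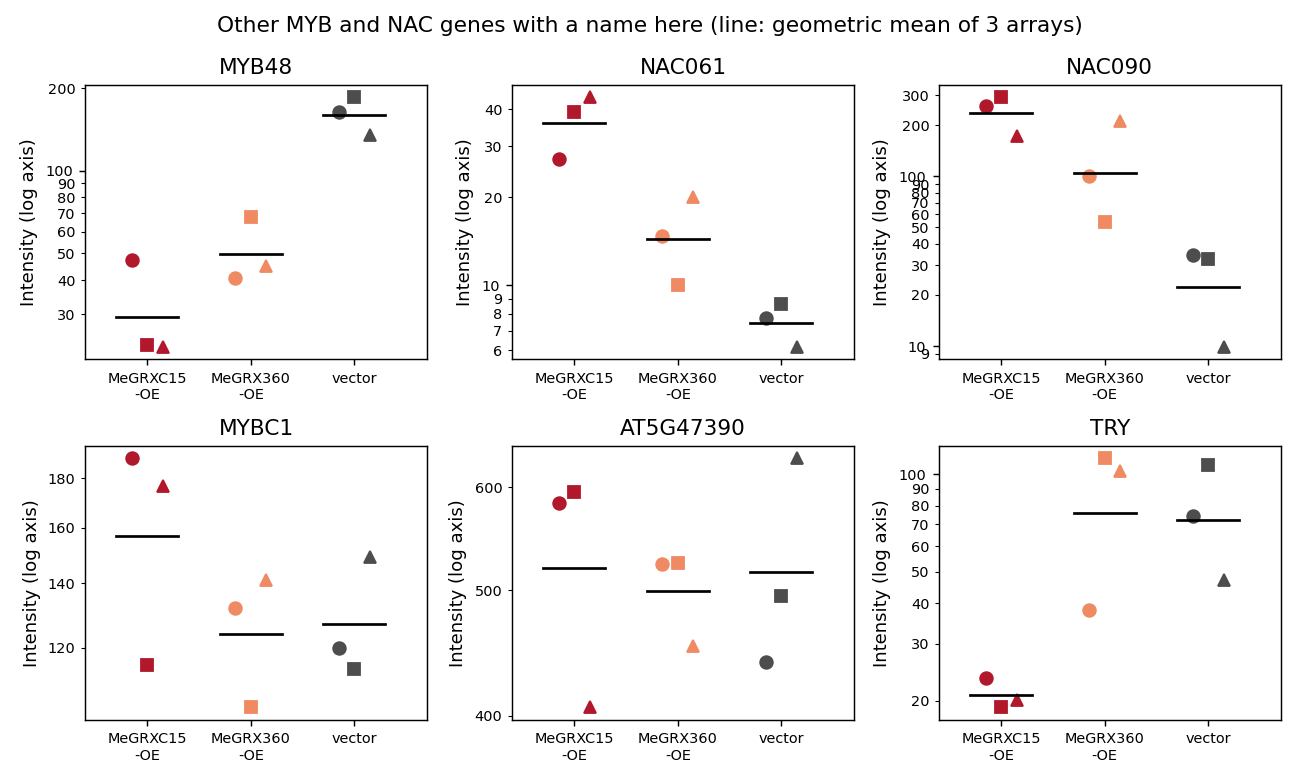
Intensity on a log axis of the 6 other MYB and NAC genes named in the text, in each of the 9 arrays (marker shapes are replicate numbers, lines are geometric means of 3 arrays). In *MYB48*, *NAC061* and *NAC090*, which were listed because they changed on these arrays, the overexpression arrays do not overlap with the vector arrays. Over all probe sets, 37.1% did not overlap in *MeGRXC15*-OE against vector and 35.4% in MeGRX360-OE against vector. In *TRY* the *MeGRXC15*-OE arrays, at 19.1 to 23.5, lie below all others.

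Outside the symbol rule, *MYBC1* and AT5G47390, a single-repeat MYB factor that promotes leaf expansion and is also called KUA1, carry a MYB name in the annotation or in RefSeq. Against vector, *MYBC1* stood at 0.31 in *MeGRXC15*-OE and at -0.03 in MeGRX360-OE (SE 0.21 each). AT5G47390 stood at 0.01 and -0.05 (SE 0.19 each), and neither gene passed. *TRY*, a small MYB protein that represses trichome formation and one of the trichome markers, fell by 1.79 in *MeGRXC15*-OE (SE 0.42, adjusted p = 0.0157 from limma), with 23.5, 19.1 and 20.1 there against 74.3, 107 and 47.0 in vector leaves. It stood at 38.0, 112 and 102 in MeGRX360-OE. The difference of *TRY* between the overexpression groups, -1.87 (SE 0.42, adjusted p = 0.118 from limma), did not pass. This difference passed with array quality weights (-2.07, adjusted p = 0.0272 from limma) and without MeGRX360-OE replicate 1 (-2.37, adjusted p = 0.0306). The *MeGRXC15*-OE call of *TRY* was lost without vector replicate 2 (-1.50, adjusted p = 0.0624). Among 40 genes of pathways that MYB and NAC factors control, 5 have a name. Over all probe sets, 22.0% were called in *MeGRXC15*-OE and 16.5% in MeGRX360-OE against vector, and 0.145% between the overexpression groups. None of the 5 genes passed in any of the 3 comparisons with all 9 arrays, which at these shares is not a result about them. They include AT2G21640 and *NDB2*, mitochondrial stress genes controlled by membrane-tethered NAC factors related to *NAC014*, at 0.11 (SE 0.17) and -0.82 (SE 0.38) in *MeGRXC15*-OE and at 0.41 (SE 0.17) and -0.55 (SE 0.38) in MeGRX360-OE against vector. *NDB2* passed in *MeGRXC15*-OE when vector replicate 3 was left out (-1.26, limma adjusted p = 0.0198).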

How the data were processed

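The authors deposited a normalized intensity, not on a log scale, for each of 22810 probe sets. The submitters' processing notes name RMA, without a version. From there, log2 was taken with no pseudocount, and 22746 probe sets (without 64 manufacturer's controls) were tested with limma 3.58.1 (R 4.3.3). The model had 1 mean per group over all 9 arrays, with 6 residual degrees of freedom and 2.76 from the prior. Benjamini-Hochberg adjustment ran over all of these, and a call is an adjusted p under 0.05. Gene names are those of the platform annotation (8794 probe sets are not in it and 503 have several genes), with 3 from a supplementary table. No genome or sequence table was used, so no sequence and no coordinates are given, and the order of neighbouring genes is that of the RefSeq table. The rule for genes to name asked for large changes among called members, and *NAC014* was named as the only member. The members and lists were chosen with earlier results of these data known. *TRY*, *MYBC1* and AT5G47390 were named after their values were seen. Steps were tested on simulated data. Alternatives were a replicate block, quantile normalization, median centring, dropping the dimmest 40% of probe sets, a trended prior, array quality weights, only the 6 arrays compared, and leaving out each array. The number of arrays limits the precision.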

Additional observations from a re-analysis of the deposited data

How the results depend on the processing

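*NAC014* kept its sign against vector in all 13 alternatives of each comparison. In *MeGRXC15*-OE against vector it passed in 6 of them, namely quantile normalization (0.60), median centring (0.59), leaving out the dimmest 40% of probe sets (0.54, adjusted p = 0.0475 from limma), array quality weights (0.65), only the 6 arrays compared (0.54, adjusted p = 0.0472) and leaving out vector replicate 3. In MeGRX360-OE against vector it passed in 2, quantile normalization (0.62) and array quality weights (0.48). Leaving out each array in turn gave 0.44 to 0.66 (adjusted p = 0.0417 to 0.190) in the first comparison, 0.38 to 0.66 (adjusted p = 0.0533 to 0.217) in the second and -0.11 to 0.16 (adjusted p = 0.673 to 0.966) between both overexpression groups, where centring gave 0.01 and array quality weights 0.17. The cause of these shifts was not tested. The probe set with the lowest mean gave no further value, since *NAC014* has 1 probe set.

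Replicate numbers were shared between groups, and 3 of 9 same-numbered pairs had deviations that correlated above 0.1 (-0.21 to 0.27). Deviations from the mean of 3 arrays depend on each other. These correlations therefore cannot show whether same-numbered samples were handled together. With the replicate block *NAC014* stood at 0.54 in both comparisons with vector (adjusted p = 0.0565 and 0.0701 from limma) and at 0.00 between the overexpression groups. The block gave 4724, 3302 and 25 called probe sets, against 5009, 3746 and 33 without it.

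Of the other genes, AT5G47390 changed sign after quantile normalization (-0.02) in *MeGRXC15*-OE, and *MYBC1* stood at 0.00 after quantile normalization, 0.00 after centring and 0.06 with array weights in MeGRX360-OE. Leaving out arrays moved AT5G47390 over -0.10 to 0.19, -0.16 to 0.10 and -0.04 to 0.24 in the 3 comparisons, *MYBC1* over -0.12 to 0.10 and *TRY* over -0.23 to 0.57 in MeGRX360-OE against vector, and *NDB2* over -0.52 to 0.02 between the overexpression groups and over -1.26 to -0.52 in *MeGRXC15*-OE against vector. *NAC061* gave no value without the dimmest 40% of probe sets, since it is one of them. Leaving out 1 array took *NAC061* over 0.71 to 1.21 and *NAC090* over 1.63 to 2.69 in MeGRX360-OE against vector, with 5 and 4 of 6 such calls lost.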

Other observations

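Of the 3 protein-coding genes on each side of *NAC014* in the RefSeq table (assembly TAIR10.1), 4 have a single-gene probe set here, and no protein-coding gene overlaps *NAC014* there. These genes were looked at after the data were seen. AT1G33050, which lies 2 genes away, was at 320, 279 and 262 in *MeGRXC15*-OE, 336, 191 and 207 in MeGRX360-OE and 148, 132 and 192 in vector leaves. As for *NAC014*, MeGRX360-OE line 5 was the brightest array and vector replicate 2 the dimmest. Its log2 fold change against vector was 0.88 in *MeGRXC15*-OE (SE 0.23, limma adjusted p = 0.0229), which passed, and 0.61 in MeGRX360-OE (SE 0.23, limma adjusted p = 0.111), which did not. The *MeGRXC15*-OE call was lost in 4 of 6 cases when 1 array was left out (adjusted p up to 0.0894). The other 3 neighbours did not pass in either comparison. Over all probe sets, 22.0% were called in *MeGRXC15*-OE and 16.5% in MeGRX360-OE against vector, so 1 call among 4 neighbours is not a result about them. AT1G33055, which lies next to *NAC014*, had larger estimates than AT1G33050, 1.25 and 1.01 (SE 0.84 each). Its vector arrays stood at 29.0, 22.9 and 234, so its brightest array was vector replicate 3, unlike for *NAC014*.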
